A study of Drosophila melanogaster with 3 samples.

Results

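The odorant, gustatory and ionotropic receptor genes of the fly were examined for chromatin peaks of the homeodomain protein PHDP. The set holds every protein-coding gene whose symbol is Or, Gr or Ir followed by a digit, which gave 179 of 13945 protein-coding genes: 59 Or genes, 60 Gr genes and 60 Ir genes. Orco, the odorant co-receptor, carries no digit and is not among them. The embryos were whole Drosophila melanogaster embryos aged 10 to 24 hours, from a transgenic line stably carrying PHDP with green fluorescent protein (GFP) fused to its C terminus. The group had 3 biological replicates, and an antibody against GFP was used for chromatin immunoprecipitation and sequencing (ChIP-seq). All samples carry the fusion and no embryos without it were analysed here, so PHDP peaks and peaks of the antibody alone cannot be told apart. What drives the fusion is not given in the sources used here. Peaks come from all cells of the embryo together, so the cell type of a peak was not tested, and a peak list holds no marker of tissue that could be checked.

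Chemosensory receptors of insects sit in the dendrites of sensory neurons, where they turn a chemical into a current. Or proteins form odorant-gated ion channels together with Orco. Gr proteins detect sugars, bitter compounds, some pheromones and carbon dioxide. Ir proteins are relatives of ionotropic glutamate receptors, detect acids, amines, salts, temperature and humidity, and work with the co-receptors Ir8a, Ir25a and Ir76b. Most of these receptor genes are transcribed in few neurons, late in the development of a sense organ. PHDP belongs to the paired-like homeodomain proteins, which bind AT-rich DNA with the core word TAATTA.

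Peaks were taken from 5 deposited lists. Each replicate and the pooled replicates had a list of 30000 peaks, and the list filtered by irreproducible discovery rate (IDR), which keeps peaks that rank alike in the replicates, was shorter. A gene counts as having a peak when a summit, the highest point of a peak, lies within 1 kb of any of its annotated start sites. One peak can then count for several genes, and it says nothing of transcription. The authors' signal of a peak has its own scale in each list, so peaks are ranked only within a list. A mean and SD of 1 peak over the 3 replicate lists hold differences of scale as well as replicate spread. Sequencing depth is unknown from these files.

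Receptor genes rarely had a peak at their start. In the IDR list 3 of the 179 genes had one (1.68%, 95% exact binomial interval 0.347 to 4.82%), against 28.9% of all protein-coding genes and 4028 of the 13766 other genes (29.3%). They were Or88a, a receptor of antennal pheromone-sensing neurons, Gr32a, a receptor for bitter compounds and courtship-inhibiting pheromones, and Or9a, an antennal odorant receptor. By family, 2 of 59 Or genes (3.39%), 1 of 60 Gr genes (1.67%) and 0 of 60 Ir genes had an IDR peak, and 0 of 60 allows a share of up to 5% by the limit of 3 counts, and of up to 5.96% by the exact interval. The intervals and the limit cover counting error over genes, and receptor genes that share a cluster or a peak are not independent. The count was set by the distance allowed: it was 0 within 500 bp, where 25.1% of all genes had a peak, and 12 within 2 kb, where 35.2% did.

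The share at receptor genes was below that at other genes in every replicate. Among the strongest 5000 peaks of replicates 1, 2 and 3, receptor genes with a peak numbered 4 (2.23%), 2 (1.12%) and 2 (1.12%), against 22.5%, 23.2% and 23.2% of the other genes. The means were 1.49% ± 0.645 for receptor genes and 23.0% ± 0.381 for other genes (SD, n = 3), and the 2 sets of values did not overlap. Receptor genes minus other genes differed by -20.3, -22.1 and -22.0 percentage points, with a mean of -21.5 ± 1.03. The exact two-sided sign-flip permutation p was 0.25, the smallest that 3 replicates can give, so no difference can pass a stricter threshold in this design. With all 30000 peaks of a replicate, 21, 15 and 16 receptor genes had a peak (9.68% ± 1.80, SD, n = 3), against 54.9% ± 1.70 of the other genes.

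**Figure D1:**
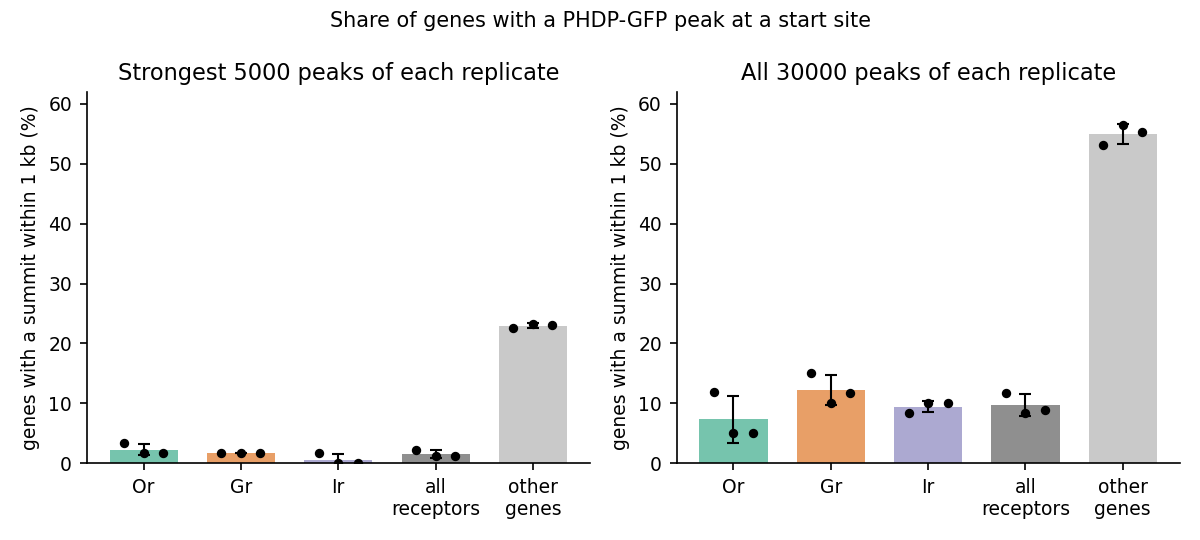
Share of genes (%) with a peak summit within 1 kb of a start site, for the 3 receptor families, all 179 receptor genes and the 13766 other protein-coding genes, in the strongest 5000 (left) and all 30000 peaks (right) of each replicate. Points are replicates 1, 2 and 3 from left to right, bars their means and error bars the SD; every receptor point lies below every point of the other genes, at most 15% against at least 53.1% on the right.

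Among the 3 families the order was not settled by the replicates. Over all 30000 peaks, Or genes with a peak numbered 7, 3 and 3 in replicates 1, 2 and 3 (7.34% ± 3.91, SD, n = 3). Gr genes numbered 9, 6 and 7 (12.2% ± 2.55), and Ir genes 5, 6 and 6 (9.44% ± 0.962). The Gr share was above the Or share in 3 of 3 replicates, and the Ir share was below the Or share in replicate 1 and above it in the other two. Or minus Gr was -4.88 ± 1.72 percentage points, with an exact sign-flip permutation p of 0.25 and 0.5 after Benjamini-Hochberg adjustment over the 3 pairs of families. Or minus Ir was -2.10 ± 4.88 and Gr minus Ir 2.78 ± 3.47 points, each with an exact permutation p of 0.5 before and after adjustment. Among the strongest 5000 peaks Or minus Gr was 0.593 points and Or minus Ir 1.70 points, so the direction of both depended on how many peaks were used. Without replicate 1, Or minus Ir was -4.92 and Gr minus Ir 0.833 points. Or minus Ir was -0.692 points without replicate 2 and also without replicate 3, and Gr minus Ir was 4.17 points without replicate 2.

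None of the IDR peaks near a receptor gene was nearest to that gene's start. A peak was put at a gene's own promoter when its summit lay within 500 bp of one of the gene's start sites and no other protein-coding start was nearer, and at a neighbouring promoter when another gene's start met both conditions. By this rule 0 of 179 receptor genes had an IDR peak at their own promoter, which allows a share of up to 1.68% by the limit of 3 counts and of up to 2.04% by the exact interval, against 19.4% of all protein-coding genes. Of the 3 peaks, 2 lay at a neighbouring promoter and 1 at neither. With the limit of 500 bp raised to 1000 bp, all 3 lay at a neighbouring promoter. Among all protein-coding genes, 4031 had an IDR peak within 1 kb and 2706 one at their own promoter. Other genes were thus also linked to peaks outside their own promoter, and the classes were not counted over all genes. All 3 peaks near receptor genes were in intergenic sequence between a receptor gene and a neighbour transcribed away from it.

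The strongest of them lay upstream of Or88a (FBgn0038203), at 3R:14108516-14109021 of dm6. Its signal was 233, 317 and 195 in replicates 1, 2 and 3 (248 ± 62.7, SD, n = 3), with ranks 1146, 737 and 1092, and it ranked 917 in the pooled list. Its summit lay between a pair of divergent genes whose starts are 1124 bp apart, 612 bp upstream of Or88a and 512 bp upstream of CG12402. It thus sat near the middle of the interval, more than 500 bp from either start, and in every replicate it was among the strongest 5000 peaks.

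The Gr32a peak (FBgn0041246) at 2L:11113137-11113441 had signals of 179, 198 and 162 in the replicates (180 ± 18.1, SD, n = 3) and ranked 1731, 1645 and 1479. Its summit was 758 bp upstream of Gr32a and 195 bp upstream of Idua, a gene for a lysosomal enzyme, with 953 bp between the starts. The Or9a peak (FBgn0030204) at X:10460477-10460872 had signals of 101, 127 and 108 (112 ± 13.4, SD, n = 3) and ranked 3942, 3147 and 2728. It lay 61 bp upstream of Neb-cGP and 999 bp upstream of Or9a, so it counts for Or9a by 1 bp. In the replicate lists it fell inside 1 kb of Or9a in 1 of 3. The 3 peaks kept their order of signal in every replicate.

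The sequence under the 3 IDR summits is shown because these are the strongest peaks that count for a receptor gene. Each line gives dm6 sequence of the forward strand within 100 bp of a summit, with copies of TAATTA in capitals, and the Or9a line stops where the annotated transcript of Neb-cGP begins.
Or88a, chr3R:14108733-14108933: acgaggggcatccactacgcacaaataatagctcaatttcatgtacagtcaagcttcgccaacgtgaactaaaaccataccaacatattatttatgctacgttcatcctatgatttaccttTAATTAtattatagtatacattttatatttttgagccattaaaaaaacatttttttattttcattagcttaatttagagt
Gr32a, chr2L:11113156-11113356: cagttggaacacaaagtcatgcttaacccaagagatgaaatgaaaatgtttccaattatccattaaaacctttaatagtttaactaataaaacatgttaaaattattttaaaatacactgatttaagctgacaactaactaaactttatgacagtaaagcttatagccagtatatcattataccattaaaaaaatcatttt
Or9a, chrX:10460575-10460735: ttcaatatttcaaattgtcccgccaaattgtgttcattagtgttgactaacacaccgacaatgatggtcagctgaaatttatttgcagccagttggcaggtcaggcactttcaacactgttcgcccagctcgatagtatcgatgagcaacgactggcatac
The Or88a window holds TAATTA, and the Gr32a and Or9a windows do not. TAATTA reads the same on both strands. Windows of 201 bp around all IDR summits hold it in 18.8% of cases.

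Between 1 and 2 kb from a receptor gene lay 8 IDR peaks, 5 of them closer to another protein-coding start. Gr89a, a receptor broadly expressed in bitter neurons, had the strongest of them, at 3R:16497441-16497807, with signals of 250, 380 and 304 (311 ± 65.0, SD, n = 3). Its summit was 1321 bp downstream of the Gr89a start, beyond the end of the gene, and 2216 bp from Cad89D, a cadherin gene. Gr39b had a summit 1337 bp upstream that was 184 bp from CG8665, and Or85f one 1948 bp downstream that was 85 bp from CG34117. Ir76b, a co-receptor, had one 1613 bp upstream, 300 bp from CG14187, with signals of 63.1, 64.4 and 61.2. The summits 1480 bp upstream of Gr5a and 1747 bp upstream of Gr97a lay in introns of Tre1, a G protein-coupled receptor gene, and of CG5521. The remaining peaks, named after their values were seen, lay 1962 bp downstream of Gr93a and 1988 bp upstream of Gr10a and Or10a, with no nearer start of another gene.

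Distances to the nearest summit told the same of the set as a whole. The median distance to an IDR summit was 13095 bp for receptor genes (16391 bp for Or, 10922 bp for Gr and 10115 bp for Ir genes), against 4747 bp for the other genes. With the strongest 5000 peaks of a replicate it was 15111, 19681 and 18398 bp for receptor genes (17730 ± 2357, SD, n = 3), against 6696 ± 157 bp for other genes, with no overlap. Within 5 kb of an IDR summit lay 34 receptor genes (19.0%) and 51.1% of the other genes, and beyond 20 kb 59 receptor genes (33.0%) and 18.2% of the others. The farthest, chosen after its values were seen, was Ir40a, a humidity receptor subunit, at 322268 bp. Receptor genes therefore lay far from peaks in general, and not only outside the limit of 1 kb.

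**Figure D2:**
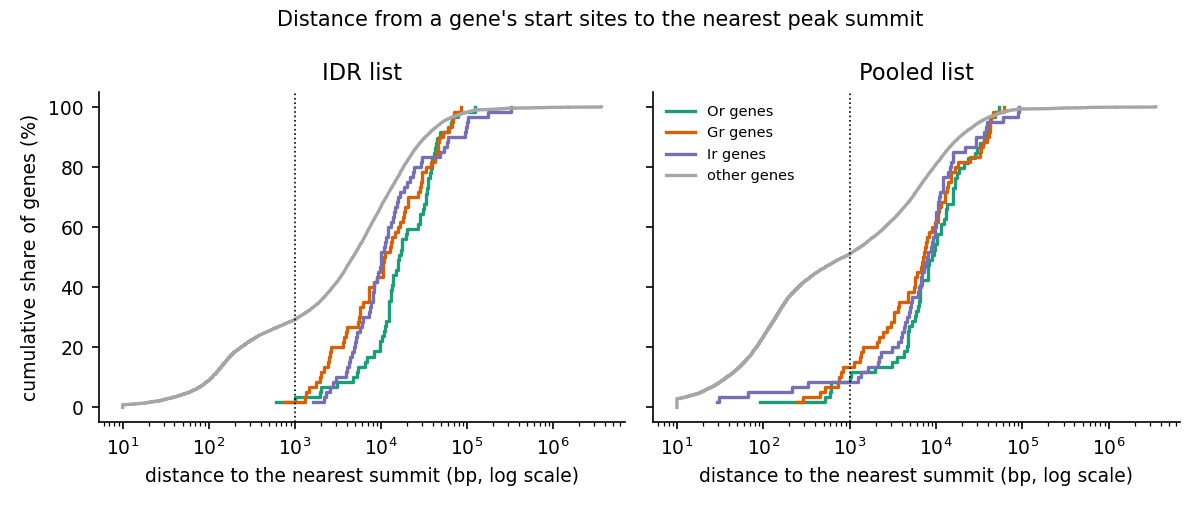
Cumulative share of genes (%) against the distance (bp, log scale, distances under 10 bp drawn at 10) from a gene's start sites to the nearest summit of the IDR (left) and pooled (right) list. Coloured lines are the Or, Gr and Ir genes and the grey line all other protein-coding genes; the dotted line marks 1 kb, and the receptor medians lie between 7216 and 16391 bp, against 4747 bp (IDR) and 846 bp (pooled) for the other genes.

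The pooled list reaches weaker peaks, with the authors' −log10 q running from 0.348 to 4.24, against 4.24 throughout the IDR list. The lists of replicates 1, 2 and 3 likewise reach down to 0.358, 0.429 and 0.388. A gene counted in these lists can thus rest on a peak of low significance. The pooled list gave 19 receptor genes (10.6%, exact binomial interval 6.51 to 16.1%), against 50.6% of all protein-coding genes and 51.1% of the other genes. They were 6 Or genes (10.2%), 8 Gr genes (13.3%) and 5 Ir genes (8.33%). At their own promoter 6 receptor genes had a pooled peak (3.35%), 1 Or, 1 Gr and 4 Ir genes, against 39.1% of all protein-coding genes. That count depends on the limit of 500 bp: with each peak given to the nearest start within 1 kb, 12 receptor genes had a pooled peak, against 42.5% of all genes. Keeping only pooled peaks matched in both other replicates left 9, 8 and 10 receptor genes without replicates 1, 2 and 3, where 41.2%, 39.2% and 40.0% of all genes remained. Just inside the limit lay Or9a at 999 bp, and just outside it Gr10a and Or10a with another peak at 1014 bp and Or71a at 1026 bp. Over all 5 lists, 155 of the 179 receptor genes (86.6%) had no summit within 1 kb, among them 51 Or, 51 Gr and 53 Ir genes, against 35.7% of the other genes. Of all protein-coding genes, 63.6% had one in at least 1 list and 63.4% in at least 1 replicate list.

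The 19 genes came with 20 pooled peaks and 21 pairs of a peak and a receptor gene, because Ir60e and Ir31a each had 2 peaks and Gr10a and Or10a share an annotated start. Of the 21 pairs, 8 put the summit at a neighbouring promoter, 6 at the receptor gene's own promoter and 7 at neither. Among all protein-coding genes, 7055 had a pooled peak within 1 kb and 5448 one at their own promoter. The classes were not counted over all pairs of a peak and a gene. The strength of the peaks at receptor genes is given per pair as a description, with no test. The peak shared by Gr10a and Or10a, at 35.4, therefore counts for 2 of the 7 pairs at neither. Signals ran from 59.0 to 523 (median 161) at neighbouring promoters, from 41.0 to 121 (median 79.8) at own promoters and from 35.4 to 754 (median 40.2) at neither. Over the 11163 pooled peaks within 1 kb of other genes the median was 108. Pairs whose peak was matched within 100 bp in all 3 replicate lists numbered 6 of 8, 1 of 6 and 2 of 7. The authors' −log10 q was 4 or more for 6 of 8, 0 of 6 and 1 of 7, and the own-promoter peaks had values between 0.446 and 3.27. Matches and q values are not given here for peaks near other genes.

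**Figure D3:**
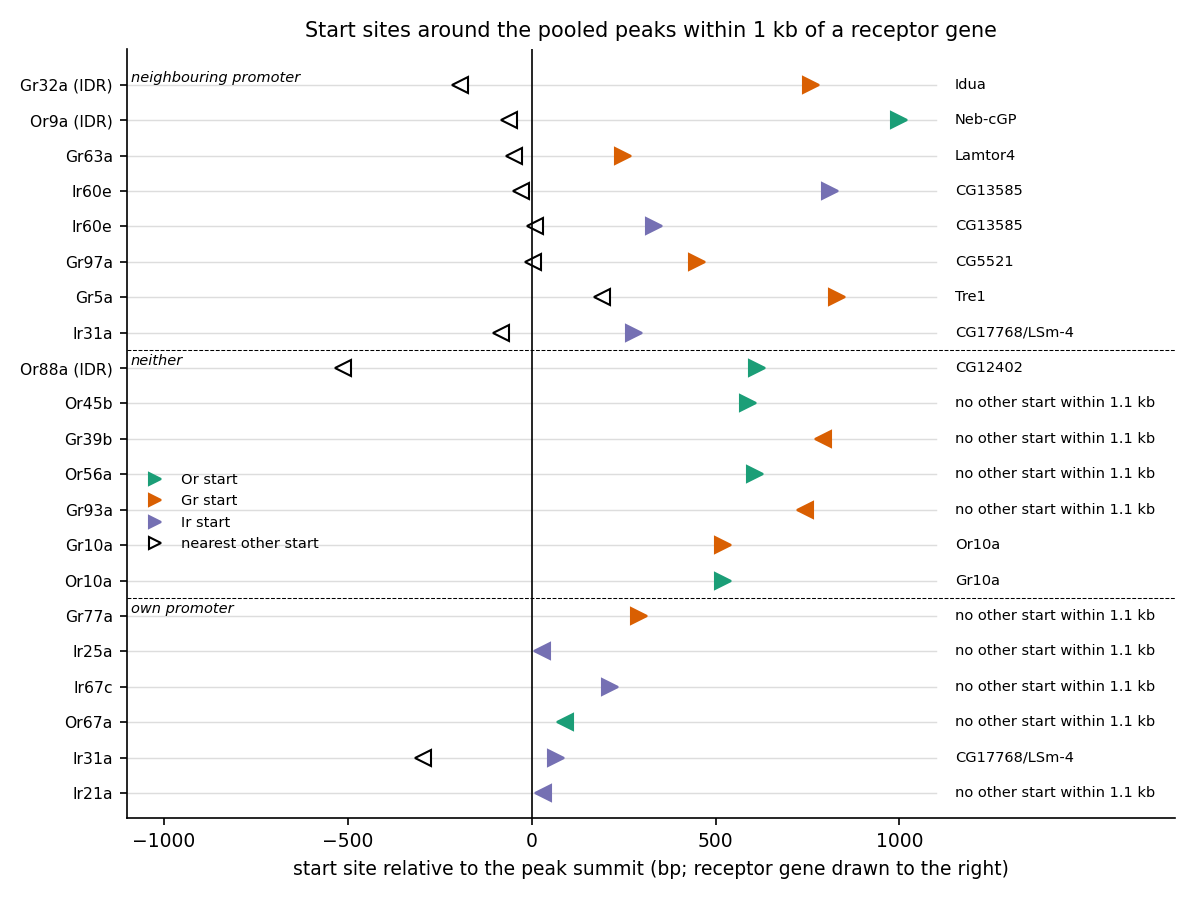
Start sites around the pooled peaks within 1 kb of a receptor gene, 1 line per pair of a peak and a gene, drawn in bp from the summit with the receptor gene to the right. Filled arrows are receptor starts and open arrows the nearest other start, named at the right, each pointing in the direction of transcription; at the 8 neighbouring promoters (top) the open arrow is nearer to the summit and points away from the receptor gene, and at the 6 own promoters (bottom) the filled arrow is nearer.

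At neighbouring promoters the other gene was transcribed away from the receptor gene in 8 of 8 pairs, a share that was not counted over all genes. Gr63a (FBgn0035468), which together with Gr21a forms the carbon dioxide receptor, had a pooled summit 249 bp upstream that was 48 bp from the start of Lamtor4, a subunit of the Ragulator complex that controls growth signalling. That peak, at 3L:3896654-3897049, had signals of 65.4, 62.4 and 51.0 in the replicates (59.6 ± 7.56, SD, n = 3) and ranks of 6868, 8032 and 7749. Gr5a, the trehalose receptor, had a summit 831 bp upstream that lay 191 bp inside Tre1, with signals of 47.0 and 41.2 in replicates 1 and 2. It had no match within 100 bp in replicate 3, but all 3 replicate lists had a summit within 1 kb of the Gr5a start. Gr97a had one 449 bp upstream and 4 bp inside CG5521, with signals of 70.9, 24.4 and 52.3 and ranks of 6254, 20894 and 7525. Ir60e had summits 332 and 812 bp upstream, which lay 10 and 28 bp from different starts of CG13585. Their signals were 84.9, 45.7 and 39.2 for the nearer one and 46.7, 66.4 and 57.1 for the other.

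Of the 6 receptor genes with an own-promoter peak 4 were Ir genes. The median pooled signal of the 6 peaks was 79.8, against 108 for pooled peaks within 1 kb of other genes. The shares were 6.67% of Ir genes (exact binomial interval 1.85 to 16.2%), 1.69% of Or genes (0.0429 to 9.09%) and 1.67% of Gr genes (0.0422 to 8.94%). These intervals overlap, and the families were not tested for this count. Ir25a (FBgn0031634), the most widely used Ir co-receptor, had a summit 29 bp inside its first exon, at 2L:4835073-4835468, with signals of 20.8, 34.2 and 29.7 (28.2 ± 6.81, SD, n = 3). It was the only one of the 6 peaks matched within 100 bp in all 3 replicates, with ranks of 26056, 15319 and 14417 of 30000. Gr77a had the strongest own-promoter peak, 292 bp upstream, with signals of 54.7 and 48.2 in replicates 1 and 2 and no match in replicate 3, in an intron of CG13252, which spans it. Ir67c had one 213 bp upstream with 37.8 and 27.3 in replicates 2 and 3, and Or67a one 91 bp inside the gene with 36.0 in replicate 1. Ir31a and Ir21a, antennal receptors for an acid and for cooling, had 1 such peak each, 66 bp upstream and 31 bp inside, matched in 1 replicate each. With any summit within 1 kb counted, Ir25a, Gr77a, Ir67c and Ir31a were in all 3 replicate lists, and Or67a and Ir21a in 2.

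The sequences under 2 of these own-promoter summits are shown because they lie in the flank of the receptor gene itself. Both are on the forward strand of dm6, and both genes are transcribed from the reverse strand, with TAATTA in capitals.
Gr77a, chr3L:20739622-20739822: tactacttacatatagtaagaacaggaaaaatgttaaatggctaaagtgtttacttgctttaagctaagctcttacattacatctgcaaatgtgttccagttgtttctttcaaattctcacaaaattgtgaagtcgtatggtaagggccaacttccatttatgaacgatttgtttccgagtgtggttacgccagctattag
Ir67c, chr3L:10434218-10434418: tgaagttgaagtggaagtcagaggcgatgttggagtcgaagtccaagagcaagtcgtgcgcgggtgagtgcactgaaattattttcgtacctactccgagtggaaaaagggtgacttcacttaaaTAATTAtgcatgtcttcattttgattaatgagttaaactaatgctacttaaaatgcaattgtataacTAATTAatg
The Ir67c window holds TAATTA and the Gr77a window holds none. Of the 20 pooled peaks at receptor genes, 4 hold the word within 100 bp of the summit (20%), against 15.9% of all pooled summits, so the receptor peaks were near the level of the list.

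The 7 remaining pairs, with a summit more than 500 bp from any protein-coding start, held the strongest peak and most of the weakest. Or88a is described above. Or45b, a larval odorant receptor, had a summit 589 bp upstream with signals of 33.3, 25.4 and 21.5 (26.7 ± 5.96, SD, n = 3), matched in all 3 replicates. Gr39b had one 792 bp inside the gene, in its own exon, with 37.2 in replicate 1 and no match within 100 bp in replicates 2 and 3. All 3 replicate lists had a summit within 1 kb of the Gr39b start. The others, named after their values were seen, were Or56a, the geosmin receptor, Gr93a, a receptor needed for caffeine taste, and the pair Gr10a and Or10a. Their pooled signals were 40.2, 36.0 and 35.4, close to the lowest of the pooled list, 35.2, and they were matched in at most 1 replicate.

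**Figure D4:**
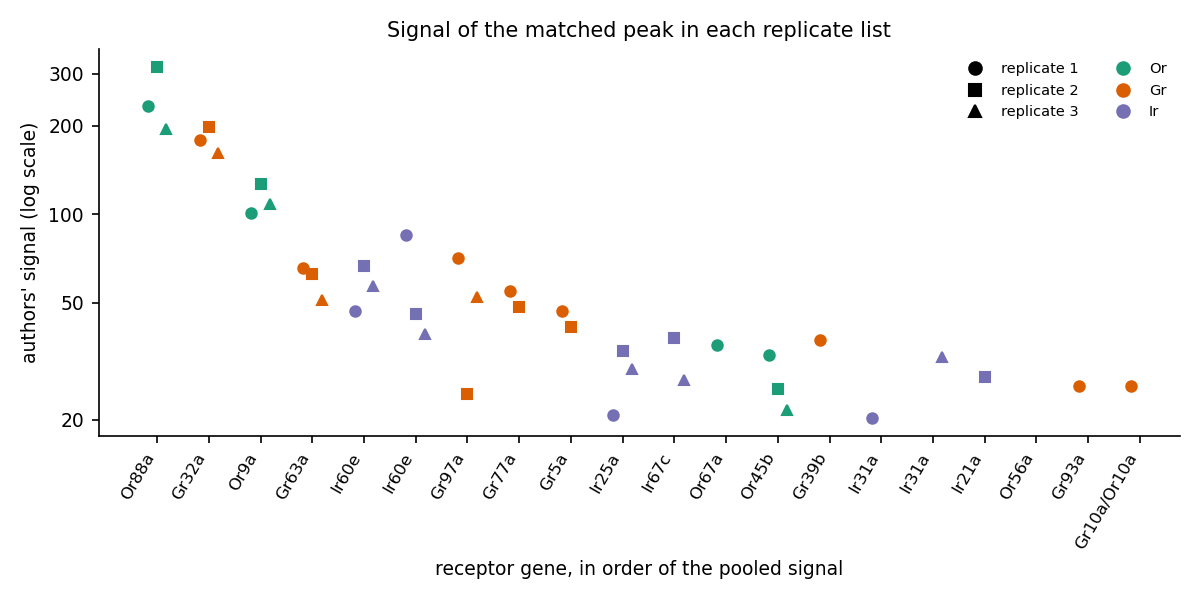
Authors' signal (log scale) of the peak matched within 100 bp in the list of each replicate, for the 20 pooled peaks within 1 kb of a receptor gene in order of pooled signal. Symbols are replicates and colours families; the 3 IDR peaks at Or88a, Gr32a and Or9a lie at 101 or more in every replicate, 9 of the 20 peaks have a value in all 3 replicates, and scales may differ between replicates.

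Receptor genes less often had a close neighbour than other genes did, so shares were also taken with and without one. Another protein-coding start lay within 1 kb of 35 receptor genes (19.6%), 6 Or, 18 Gr and 11 Ir genes, against 43.2% of the other genes. Among these 35, 1 had an IDR peak (2.86%), against 41.5% of all protein-coding genes with such a neighbour, and 8 a pooled peak (22.9%), against 62.6%. Among the 144 receptor genes without such a neighbour, 2 had an IDR peak (1.39%), against 19.4% of all such genes, and 11 a pooled peak (7.64%), against 41.6%. The IDR values rest on 1 and 2 receptor genes, and the part of close neighbours in the low share was not tested. For 12 of the 35 the close neighbour was itself a receptor gene, and only Gr10a and Or10a of those had a pooled peak; of the 23 next to another kind of gene, 6 did.

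Peaks inside receptor genes were as scarce. No receptor gene had an IDR summit between its ends, against 16.0% of all protein-coding genes, and 7 had a pooled summit there (3.91%), against 31.0%. Receptor genes are shorter, with a median length of 1691 bp against 2183 bp in the other genes, and the part of length in this count was not tested. Nested in another gene were 30 receptor genes, counting the pairs Gr10a and Or10a, and Gr64b and Gr64c, which span the same bases. Of the 30, 3 had a pooled peak within 1 kb: Gr77a, and Gr10a and Or10a, which share a peak. The same share over all nested genes was not computed.

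Around the starts, receptor genes lacked the crest of peaks that other genes had. In the 500 bp upstream of the 5' end, receptor genes had 3.91 pooled summits per 100 genes, against 39.9 in other genes. In the first 500 bp downstream the values were 1.68 and 17.0. At 2500 to 3000 bp upstream they were 7.26 and 13.2, so the gap was narrower away from the start. In Gr genes the bin from 1000 to 1500 bp upstream held 13.3 summits per 100 genes, level with the 13.2 of other genes there, and their bin next to the start held 5. Each bin over all 179 genes rests on 2 to 16 summits, and the bins of a single family on 0 to 9.

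**Figure D5:**
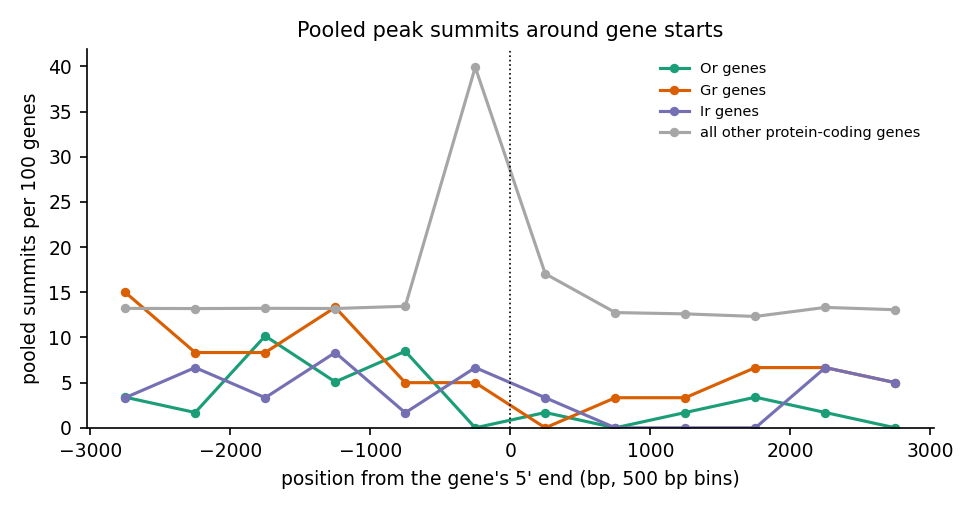
Pooled summits per 100 genes in 500 bp bins around the 5' end of Or, Gr and Ir genes (coloured) and of all other protein-coding genes (grey), with negative positions upstream. Other genes reach 39.9 in the bin before the start, and no receptor family exceeds 6.67 in either bin at the start.

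Promoter sequence was compared for the homeodomain core word, for words of broadly expressed promoters and for GC content, with no test of the differences. In the 250 bp before and 50 bp after the 5' end, TAATTA was present in 80 of 179 receptor genes (44.7%), 44.1% of Or, 58.3% of Gr and 31.7% of Ir genes, against 20.1% of the other genes. Median GC was similar, 39.3% in receptor genes and 38% in the others. A pair of words common in promoters of broadly expressed fly genes were nearly missing. TATCGATA, the core of the DNA replication-related element, was in 1 receptor promoter (0.559%), that of Gr68a, against 9.47% in other genes. GGTCACAC, the core of the element known as Motif 1, was in 0, against 7.8%; each word was searched on both strands.

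Few receptor genes had a peak whether or not the promoter held TAATTA. Of the 80, 1 had an IDR peak (1.25%), that of Or88a, against 31.2% of all genes with the word. Of the 99 without it, 2 had one (2.02%), against 28.3% of all genes without it. The 178 receptor genes with neither promoter element word held all 3 IDR peaks (1.69%), against 26.0% of all genes with neither word and 44.3% of genes with either. As that group is nearly the whole set, the part of these words in the low share was not tested.

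The upstream sequences of 3 receptor genes with the word and no peak in any list within 1 kb are shown, 1 of each family. They were picked by the number of copies of the word, not by the lack of a peak. Each is the 250 bp before the start in dm6, written in the direction of transcription, with TAATTA in capitals.
Gr98d, chr3R:27545802-27546051, plus strand: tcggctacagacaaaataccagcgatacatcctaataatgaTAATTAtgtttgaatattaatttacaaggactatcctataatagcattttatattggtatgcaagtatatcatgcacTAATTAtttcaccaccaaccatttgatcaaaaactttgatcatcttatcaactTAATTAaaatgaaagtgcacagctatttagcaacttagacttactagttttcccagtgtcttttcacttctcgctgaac
Or30a, chr2L:9111564-9111813, plus strand: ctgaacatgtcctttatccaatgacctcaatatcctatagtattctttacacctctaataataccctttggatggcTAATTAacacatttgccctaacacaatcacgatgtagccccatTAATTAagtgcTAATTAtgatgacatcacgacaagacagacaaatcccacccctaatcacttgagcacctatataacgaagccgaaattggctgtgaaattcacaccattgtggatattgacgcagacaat
Ir10a, chrX:11311209-11311458, minus strand: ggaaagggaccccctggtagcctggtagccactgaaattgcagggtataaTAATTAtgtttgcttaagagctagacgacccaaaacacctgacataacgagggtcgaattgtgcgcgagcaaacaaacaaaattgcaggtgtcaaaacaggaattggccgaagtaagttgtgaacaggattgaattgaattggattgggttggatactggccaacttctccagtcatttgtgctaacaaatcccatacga
Gr98d and Or30a hold 3 copies each, the most found in this window. Ir48c also holds 3 but had a peak within 1 kb in 2 replicate lists, and Ir10a, with 1 copy, comes first by name among the Ir genes left that could be shown. Their nearest pooled summits were 9089, 8890 and 6365 bp away. Of the 179 receptor genes, 101 had no copy in the 250 bp upstream, 69 had 1 and 9 had 2 or more. A copy of the word is not by itself a binding site.

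Receptor classes within the families are given as counts. Of the 3 Ir co-receptors, 0 had an IDR peak and 1, Ir25a, a pooled peak, and of 14 antennal Ir genes 0 and 2 (Ir21a and Ir31a). Of 9 sugar Gr genes 0 and 1 (Gr5a), of 2 carbon dioxide Gr genes 0 and 1 (Gr63a), and of 6 bitter Gr genes 1 (Gr32a) and 2 (Gr32a and Gr93a) had an IDR and a pooled peak. Of 22 larval Or genes, whose neurons form in the embryo, 0 had an IDR peak and 1, Or45b, a pooled peak. Of all protein-coding genes, 28.9% had an IDR and 50.6% a pooled peak. Classes of 2 to 22 genes give coarse shares, and none was tested against the rest.

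Other gene sets are given as values set beside those of the receptors. IDR peaks were near 4 of 51 odorant-binding protein genes (7.84%), 4 of 70 cuticle protein genes (5.71%) and 5 of 32 dpr and DIP neuronal adhesion genes (15.6%), against 3 of 179 receptor genes (1.68%). Pooled peaks were near 12 (23.5%), 16 (22.9%) and 9 (28.1%) of them, against 19 receptor genes (10.6%). Differences between these sets and the receptor genes were not tested. All shares lay below the 28.9% (IDR) and 50.6% (pooled) of all protein-coding genes. The exact binomial interval of the dpr and DIP share of IDR peaks, 5.28 to 32.8%, includes 28.9%. Among 13 other chemosensory genes, Orco and pheromone-sensing channels included, 1 had an IDR peak, ppk29, a pheromone-sensing channel subunit, and 5 a pooled peak. Among 14 regulators of sensory neurons, 1 had an IDR peak, elav, an RNA-binding protein of neurons, and 2 a pooled peak.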

How the data were processed

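Chromatin of embryos from a PHDP-GFP line was sonicated, to fragments labelled 200 to 800 with no unit, and precipitated with anti-GFP, per the labels. Per the file headers, the authors derived each replicate's peaks from that replicate and 1 shared control (not analysed here), and the IDR list from the replicate and pooled lists, on dm6. Which aligner and which peak caller were run is not given in the sources used here. Peak signal and −log10 q are the authors' deposited values, and were not recomputed.

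Summits were linked to start sites of Ensembl release 115 (BDGP6.54). Sequences are from the RefSeq copy of assembly release 6, the same assembly as dm6. Coordinates are 1-based. The 5 mitochondrial peaks were left out. Peaks were matched between lists within 100 bp. The 3 replicates are biological replicates per the labels, with no other group to pair them with. Tests were exact two-sided sign-flip permutation tests over the replicates, on differences between gene sets taken within each replicate. Alternatives were other distances, peak thresholds, linking rules and start sites, and leaving out each replicate.

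The members and lists were chosen with earlier results of these data known. Named genes were those with an IDR summit within 1 kb, the next 10 by pooled signal, up to 6 with an IDR summit between 1 and 2 kb, and up to 3 per list. The linking was tested on simulated data. Python 3.11.15, numpy 2.4.6, scipy 1.17.1, pandas 2.3.3 and matplotlib 3.10.9 were used.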

Additional observations from a re-analysis of the deposited data

How the results depend on the processing

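The difference between receptor genes and other genes kept its direction under every alternative run, at -12.4 points with the strongest 2500 peaks of a replicate and -45.3 with all 30000, against -21.5 with 5000. Counts of receptor genes with an IDR peak (3: 2 Or, 1 Gr, 0 Ir) were 0 in every family within 200 bp, within 500 bp and with the nearest start only. Of all genes, 18.2%, 25.1% and 21.7% had an IDR peak in these settings. Receptor counts were 12 within 2 kb (4 Or, 7 Gr, 1 Ir), against 35.2% of all genes. With the strongest 1000 peaks the count was 1 (1 Or, 0 Gr), against 6.31% of all genes. Leaving out replicates 1, 2 and 3 gave 3 each time, against 22.7%, 21.6% and 22.0% of all genes. Pooled counts (19: 6 Or, 8 Gr, 5 Ir) were 4 within 200 bp (1 Or, 0 Gr, 3 Ir), 9 within 500 bp (1 Or, 3 Gr), 12 with the nearest start only (4 Gr) and 9 with the strongest 15000 peaks (2 Or, 5 Gr, 2 Ir), and Ir genes numbered 8 within 2 kb. In the same order, 36.5%, 45.8%, 42.5%, 42.7% and 56.8% of all genes had a pooled peak. Leaving out a replicate, which keeps only peaks matched in both others, gave 8 to 10 receptor genes, 3 to 3 Or, 3 to 5 Gr and 2 to 3 Ir genes, against 39.2 to 41.2% of all genes. Or minus Gr turned to 0.0282 and 0.593 points with the strongest 2500 and 5000 peaks. Or minus Ir turned to 1.69, 1.70 and 1.71 points with the strongest 2500, the strongest 5000 and as many as the IDR list holds, and to 1.92 within 2 kb. Gr minus Ir turned to -2.78 within 500 bp. The cause was not tested. IDR peaks at a neighbouring promoter numbered 2, and 3 with the promoter limit at 1000 bp, where the Or88a peak was given to CG12402. Pooled peaks at a neighbouring promoter numbered 8, 9 with that limit, and 6 to 7 when a replicate was left out. Samples could not be paired between groups because there is 1 group, and the sign-flip tests used differences taken within each replicate. Sequencing depth is unknown, so a weak peak missed for lack of reads cannot be told from no peak.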

Other observations

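Of the 24 receptor genes with a summit within 1 kb in any replicate list, 12 were in all 3 lists (50%), 4 in 2 and 8 in 1. Among the other protein-coding genes, 64.1% were in a replicate list, and 71.8% of those were in all 3. Some were there without a pooled peak. Gr64a, a sugar receptor, and Ir48c were in 2 replicate lists. Ir76b, a co-receptor, Or67d, the receptor for the male pheromone cVA, and Or71a, a receptor of the maxillary palp, were in 1 each. These genes were chosen after their values were seen.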
